A study of Homo sapiens with 4 samples.

Results

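Cathepsins are proteases of the lysosome and of secretory granules, and cystatins are small proteins that block the papain-like cysteine cathepsins. In the RNA of MV4-11 cells, a human AML cell line, 10 such genes were followed after ANP32B knockdown, namely the cysteine cathepsins CTSB, CTSC, CTSH, CTSL, CTSS and CTSZ, the aspartic protease CTSD, the serine carboxypeptidase CTSA, and the cystatins CST3 and CSTB. They were picked by name, with the difference between the groups below already known, so their own values are given as a description without p-values. Of the 10 genes, 9 were among the 18885 genes listed, all 9 passed the filter on low values, and CTSL was not analysed here. The study compared 2 libraries of control cells (NC) with 2 libraries of cells with ANP32B knockdown (sh-ANP32B). The labels give no shRNA for the NC cells, whereas the paper describes an sh-NC control and puromycin selection, so an effect of transduction cannot be told apart from the loss of ANP32B here. The knockdown columns carry the mark S3, which is not explained and may name 1 of the study's hairpins. Whether replicates were separate cultures is not given in the labels, so the spread between libraries may be technical.

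Cathepsins are made as inactive precursors, carried to the lysosome largely by mannose 6-phosphate receptors, and activated there by cleavage at acid pH. Monocytes and macrophages are rich in them, and use them to degrade ingested protein and to trim the invariant chain of MHC class II molecules. CTSC activates the serine proteases of granules. CST3, or cystatin C, is secreted and acts on cathepsins that leave the cell or meet it in the endocytic route, whereas CSTB, or stefin B, stays mainly in the cytosol.

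Values are TPM, read numbers divided by gene length and set to an equal total for every library, so levels can be compared between genes. The libraries summed to between 997271 and 998546 TPM, and their depth is unknown because TPM keep no read numbers, so no counting error can be given. ANP32B had 358 and 364 TPM in NC and 54.1 and 49.3 TPM in sh-ANP32B, which left 14.3% of the control mean. Of 6 markers fixed for the line, CD33, FLT3, PTPRC, MEIS1 and HOXA9 were listed, and MPO was not analysed here. PTPRC, which encodes CD45, was called higher by the rule given below, from 62.3 and 64.1 TPM to 142 and 141 TPM, and MEIS1, a homeobox factor, lower, from 44.2 and 47.9 TPM to 30.2 and 29.6 TPM (log2 fold changes 1.15 and -0.61, limma adjusted p = 9.18e-05 and 0.00138). CD33, FLT3 and HOXA9 had log2 fold changes of 0.40, -0.15 and -0.07 and were not called. The part of these shifts in the results below was not tested. Among 17 markers of T, B, erythroid, epithelial, fibroblast and platelet cells, 2 were listed. CD79A had 0.329 and 1.21 TPM in NC and 0.0867 and 1.54 TPM in sh-ANP32B, and ITGA2B had 0.268 and 0.0422 TPM against 1.30 and 0.832 TPM. These 17 are not the whole list that was fixed, so they do not show how the level of other cells compared between the groups, and their part in the results was not tested. In bulk RNA, a change in the number of cells of a kind and a change in RNA per cell cannot be told apart.

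The letters before the transcription start are shown for CTSD and CTSA, because both genes were higher after knockdown and both carry an E-box. This is the CACGTG hexamer, which factors of several families bind, among them the MiT/TFE family in genes of the lysosome. Sequences come from RefSeq promoters on GRCh38.p14, in which 7 of the 10 genes were found, and they match hg38. CTSB and CTSS, which were higher after knockdown too, and CSTB were not found there, so their promoters were not searched. The capitals mark the E-box, which reads the same on both strands.
CTSD: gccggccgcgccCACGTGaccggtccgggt
CTSA: tgtCACGTGgcgccggagttCACGTGact
The CTSD window lies at chr11:1763957-1763986 on the minus strand, and its E-box runs from 47 to 42 bases before the RefSeq start. The CTSA window lies at chr20:45891290-45891318 on the plus strand, and it holds 2 copies between 42 and 20 bases before the start. In the 250 bases before the start, the E-box was found in 2 of the 7 promoters, those of CTSD and CTSA, and in 6.34% of 35116 promoters. Both genes also held TCACGTG or its reverse complement CACGTGA, which contain the E-box and were found in 3.31% of all promoters. The PU.1 core AGGAAGT, or ACTTCCT on the other strand, was in 7.01% of all promoters and was not found in these 7 windows. CTSZ and CST3, which were higher after knockdown too, held none of these letters there, and neither did CTSC and CTSH. The share of G and C in the same stretches ran from 58.4% in CTSC, near the median of 58.0% over all promoters, to 81.2% in CTSZ. Such matches describe letters and are no evidence of binding.

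In NC, CST3 had the highest level of the 9 genes and CTSH the lowest. CST3 ranked at place 108 of the 16937 genes tested by mean TPM in NC, and at place 22 in sh-ANP32B. CTSD moved from place 168 to place 55 and CTSS from place 3485 to place 1031. In NC, the order was CST3, CTSD, CTSB, CTSC, CTSZ, CSTB, CTSA, CTSS and CTSH, and only for CTSB and CTSC did the libraries of neighbouring genes overlap. In sh-ANP32B, CTSA stood ahead of CTSZ, CTSC and CSTB, and only the neighbours CTSA and CTSZ overlapped.

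**Figure D1:**
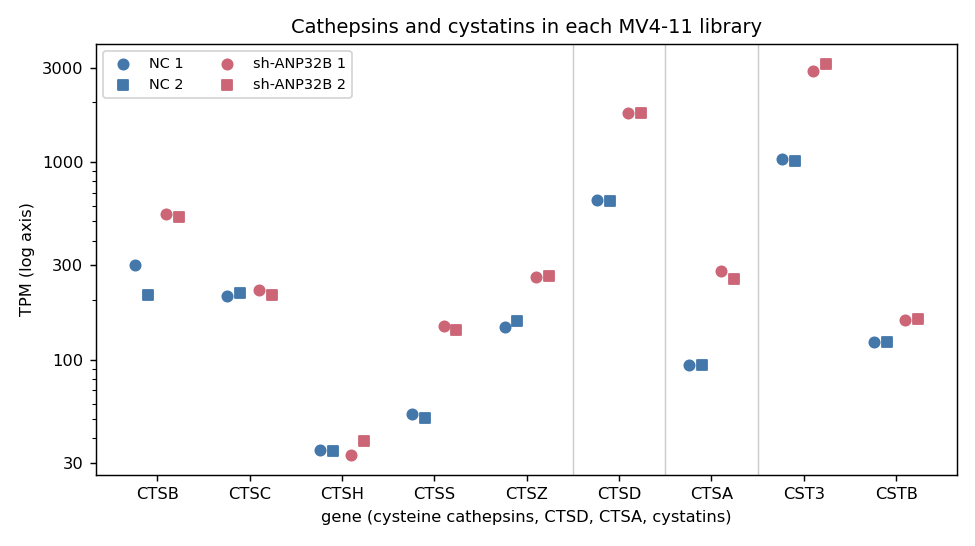
TPM of the 9 genes in each of the 4 libraries on a log axis, NC in blue and sh-ANP32B in red, with circles for replicate 1 and squares for replicate 2. Both red points lie above both blue points for 7 genes and overlap with them for CTSC and CTSH, and CTSB has the widest gap between the NC libraries.

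The 5 cysteine cathepsins analysed differed in how far their levels moved. CTSS, an endopeptidase that also works at neutral pH and trims the invariant chain, had 52.9 and 50.9 TPM in NC and 148 and 142 TPM in sh-ANP32B. Both knockdown values of CTSS lay above both controls. The group means were 51.9 ± 1.41 TPM in NC and 145 ± 4.09 TPM in sh-ANP32B (SD, n = 2 each), and the log2 fold change was 1.47 (standard error 0.049). This fold change and those that follow compare log2(TPM + 1) in sh-ANP32B with NC. CTSB, which cuts both inside proteins and at their ends, had 302 and 212 TPM in NC and 545 and 528 TPM in sh-ANP32B. The NC libraries of CTSB lay 90.1 TPM apart, and the knockdown libraries lay above both of them. Its log2 fold change was 1.08 (standard error 0.157), and it was 1.33 without NC replicate 1 and 0.83 without NC replicate 2. Of the 1659 genes that averaged 100 TPM or more in NC, 0.663% had a gap between the NC libraries as wide as that of CTSB on the log2 scale. CTSZ, a carboxypeptidase that removes single residues, had 146 and 157 TPM in NC and 263 and 265 TPM in sh-ANP32B, so the groups did not overlap. Its log2 fold change was 0.80 (standard error 0.047).

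CTSC, the dipeptidyl peptidase that activates granule serine proteases, had 211 and 218 TPM in NC and 226 and 212 TPM in sh-ANP32B. The groups overlapped for CTSC, with a log2 fold change of 0.03 (standard error 0.048). CTSH, an aminopeptidase, had 34.9 and 34.4 TPM in NC and 32.9 and 38.6 TPM in sh-ANP32B. The knockdown libraries of CTSH lay on either side of both NC libraries, and the log2 fold change was 0.04 (standard error 0.090). The fold changes of these 2 genes took either sign when a library was left out, between -0.02 and 0.08 for CTSC and between -0.07 and 0.15 for CTSH.

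CTSD, the aspartic protease of the lysosome and the most abundant protease of the group, had 640.0 and 633 TPM in NC and 1764 and 1760.5 TPM in sh-ANP32B. Replicates of CTSD were close together in both groups, and the log2 fold change was 1.47 (standard error 0.032). CTSD shares 1304 exonic bases with ENSG00000250644 and 252 with ENSG00000229512 on the same strand, and 1331 with PRADX on the opposite strand. These 3 genes had at most 14.2 TPM in any library, far below CTSD. CTSA, a serine carboxypeptidase that also stabilises the enzymes GLB1 and NEU1 in a lysosomal complex, had 93.8 and 94.4 TPM in NC and 279.7 and 255 TPM in sh-ANP32B. Its log2 fold change was 1.49 (standard error 0.055), and the lower knockdown library lay far above both NC libraries. CTSA shares 959 exonic bases with NEURL2 and 329 with PLTP, both on the opposite strand, and CTSZ shares 6136 with NELFCD on the opposite strand. NEURL2 had at most 1.29 TPM in any library. PLTP had 153 and 147 TPM in NC and 165 and 167 TPM in sh-ANP32B, while NELFCD had 62 and 65.5 TPM in NC and 58.8 and 55.6 TPM in sh-ANP32B. How the quantification handled strand is not given in the sources used here, so reads in these stretches could have been assigned to either gene.

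CST3, the secreted cystatin, had 1039 and 1014 TPM in NC and 2879 and 3144 TPM in sh-ANP32B. Its knockdown libraries stood well above both controls, the group means being 1026 ± 17.5 TPM in NC and 3011 ± 187 TPM in sh-ANP32B (SD, n = 2 each), with a log2 fold change of 1.55 (standard error 0.051). The fold changes of CST3, CTSA, CTSD and CTSS lay close together, and without sh-ANP32B replicate 2 CTSA stood at 1.56 and CST3 at 1.49. CSTB, the cytosolic cystatin, had 123 and 123 TPM in NC and 159 and 161 TPM in sh-ANP32B. The groups did not overlap for CSTB, but its log2 fold change of 0.38 (standard error 0.039) stayed inside the fold limit of 0.5. CST3 thus held 8.42 and 8.24 times the TPM of CSTB in NC, and 18.05 and 19.48 times in sh-ANP32B. The annotation names 1 pseudogene of CSTB, which was not among the genes listed.

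A gene was called at a Benjamini-Hochberg adjusted p below 0.05 from limma over all 16937 genes tested and a log2 fold change beyond 0.5. By this rule 28.0% of all genes were called, 17.9% higher and 10.1% lower in sh-ANP32B. Of the 9 genes, 6 were called higher (CTSA, CTSB, CTSD, CTSS, CTSZ and CST3), and CTSC, CTSH and CSTB were not called. The groups did not overlap, with sh-ANP32B higher, for 7 of the 9 genes and for 42.5% of all genes tested. Their median log2 fold change was 1.08, against 0.08 over all genes, whose central range from percentile 25 to percentile 75 ran from -0.26 to 0.45. CTSS and CTSD lay at percentile 97.8 of all genes, CTSA at 97.9 and CST3 at 98.1, while CTSC and CTSH lay at percentiles 46.2 and 47.0. As the genes were chosen on this contrast, nothing is read from these counts.

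**Figure D2:**
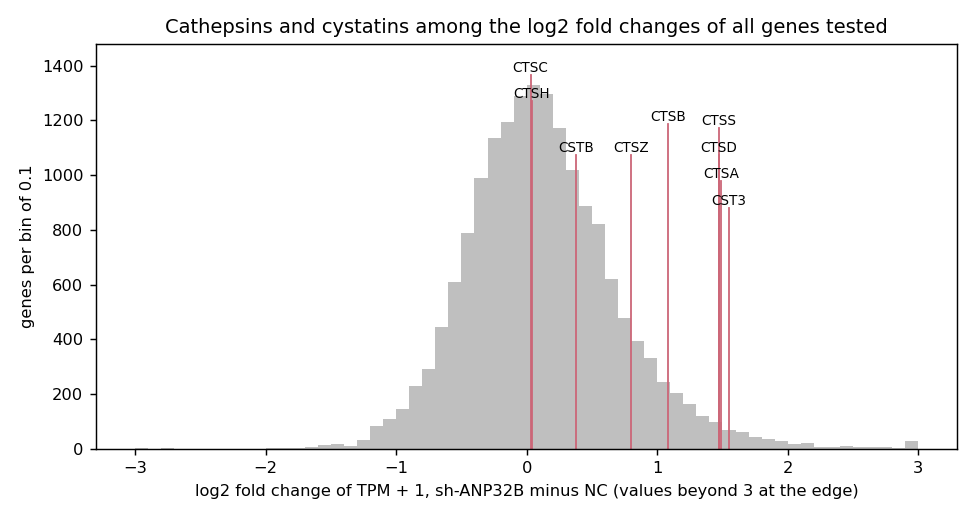
Histogram of the log2 fold changes of the 16937 genes tested, with a line for each of the 9 genes. CTSC and CTSH stand near the peak, CSTB, CTSZ and CTSB to its right, and CTSS, CTSD, CTSA and CST3 between 1.47 and 1.55.

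The split of calls over all genes into higher and lower depended on scaling. Higher genes made up 63.9% of all calls on the TPM as deposited, 49.8% after quantile normalization and 51.1% after median-of-ratios scaling. Quantile normalization shifted the median of all genes by -0.12 on the log2 scale. Each of the 6 genes was called in all 10 refits with the replicate block, another filter, pseudocount or scaling, or a library left out. These refits reuse the libraries on which the genes were chosen, so nothing is read from their calls being kept. With a fold limit of 1, CTSZ was no longer called and 5 genes remained past it. Over the refits with all libraries, CST3 stayed between 1.45 and 1.65, CTSD between 1.37 and 1.58, and CTSS between 1.37 and 1.49.

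**Figure D3:**
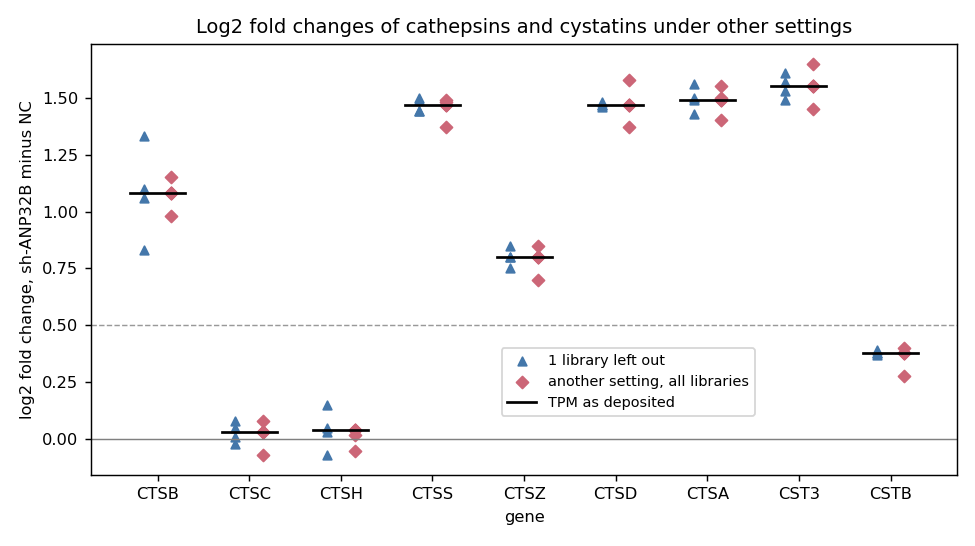
Log2 fold changes of the 9 genes, sh-ANP32B minus NC, with a black line for the TPM as deposited, blue triangles with 1 library left out and red diamonds under another setting with all libraries. CTSB spreads most, from 0.83 to 1.33, when a library is left out, and CTSC, CTSH and CSTB stay below the dashed limit of 0.5.

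Summed over the genes followed here, the proteases and the cystatins both held more TPM after knockdown, by unequal factors. The 7 proteases held 1481 and 1399 TPM in NC and 3259.8 and 3200.2 TPM in sh-ANP32B, a ratio of the means of 2.24. The cystatins CST3 and CSTB together held 1162 and 1137 TPM in NC and 3039 and 3305 TPM in sh-ANP32B, a ratio of 2.76. The 5 cysteine cathepsins, the targets of the cystatins, held 747 and 672 TPM in NC and 1216 and 1185 TPM in sh-ANP32B, a ratio of 1.69. The ratio of CST3 and CSTB to cysteine cathepsin TPM was therefore 1.56 and 1.69 in NC and 2.50 and 2.79 in sh-ANP32B. The groups did not overlap, but the ratio depends on which cystatins were picked. It leaves out CSTA and CST7, which had log2 fold changes of 0.10 and 0.06 and were not called. CST7 had 222 and 233 TPM in NC and 234 and 239 TPM in sh-ANP32B, more than CSTB. This is a ratio of RNA, and no protein or activity was measured in these libraries. The protease sums leave out CTSG, a cathepsin outside the genes followed here, so they and the shares below depend on the genes picked. CTSG had 913 and 933 TPM in NC, more than CTSD, and 1129.5 and 1116 TPM in sh-ANP32B. CTSD made up 43.2% and 45.2% of the protease TPM in NC and 54.1% and 55.0% in sh-ANP32B. CTSC, whose own level overlapped between the groups, went from 14.2% and 15.6% to 6.9% and 6.6%. All 9 genes together held 0.265% and 0.254% of the TPM of all genes in NC, and 0.631% and 0.652% in sh-ANP32B.

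**Figure D4:**
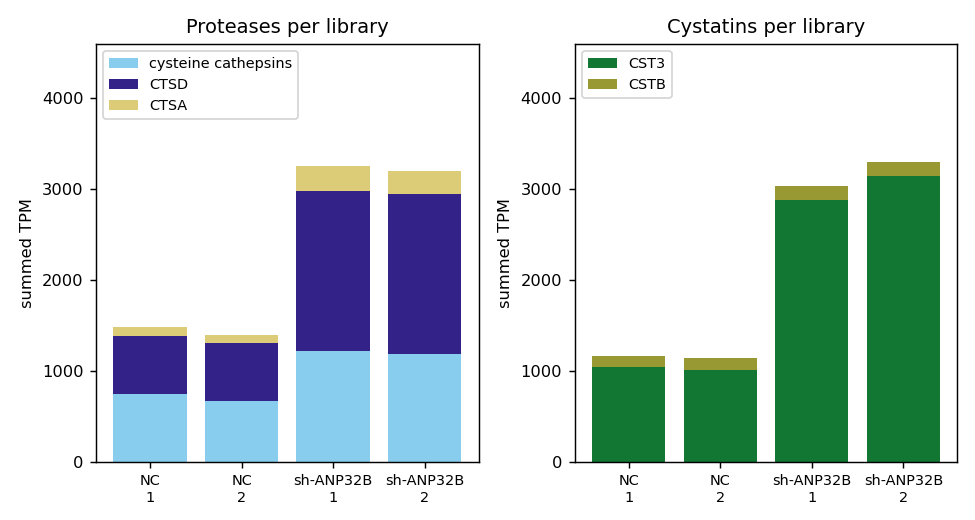
Stacked bars of summed TPM in each library, starting at 0, with the proteases on the left and the cystatins on the right. CTSD and the cysteine cathepsins make up most of the protease bars, and CST3 makes up most of the cystatin bars in all 4 libraries.

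In the genome, CTSA, CTSZ and CST3 lie on chromosome 20, and CTSC and CTSD lie on chromosome 11. On hg38, CST3 (ENSG00000101439) runs from 23626706 to 23638473 on the minus strand of chromosome 20, with 3 exons, inside the cluster of cystatin genes. CTSD (ENSG00000117984) runs from 1752752 to 1764573 on the minus strand of chromosome 11, with 9 exons in its canonical transcript. CTSA (ENSG00000064601) runs from 45890144 to 45898949 on the plus strand of chromosome 20, with 15 exons. CTSS (ENSG00000163131) runs from 150730079 to 150765957 on the minus strand of chromosome 1, with 8 exons. CTSK, another cysteine cathepsin, follows CTSS after a gap of 28922 bases and was higher too. Taking the nearest protein-coding genes tested on both sides of each member gave 18 neighbours, of which 3 were called higher (CTSK, ATP5F1E and PDXK, the last 2 of which were named after their values were seen), against 17.4% of the 11366 protein-coding genes tested. ATP5F1E was not called after quantile normalization or without sh-ANP32B replicate 2, and PDXK was not called after median-of-ratios scaling, without NC replicate 1 or without sh-ANP32B replicate 2. No neighbour was called lower in the main fit. RRP1, beside CSTB and named after its values were seen, had a log2 fold change of -0.50 (limma, adjusted p = 0.0016), at the fold limit. It was called lower at -0.51 after quantile normalization and at -0.59 after median-of-ratios scaling. The median log2 fold change of the neighbours was 0.12. Gaps between members and these neighbours ran from 0 to 1771830 bases, so not all of the neighbours are adjacent genes.

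The gene lists from here on were also chosen with earlier results of these data known. Their counts, medians and p-values are therefore descriptive, and nothing is read from the comparison with all genes. Other cathepsins outside the 10 genes were sparse. Of 7 on the list, 3 were tested, and CTSK and CTSO were called higher, against 17.9% of all genes. CTSK, known for degrading collagen in bone, had 2.29 and 2.17 TPM in NC and 6.17 and 6.16 TPM in sh-ANP32B, with a log2 fold change of 1.15 (limma, adjusted p = 0.00255). CTSO had 1.09 and 1.12 TPM in NC and 5.17 and 5.33 TPM in sh-ANP32B, with a log2 fold change of 1.57 (limma, adjusted p = 0.0013). Both rose, yet stayed far below CTSS and CTSB in level. CTSG, a serine protease of azurophil granules, had 913 and 933 TPM in NC and 1129.5 and 1116 TPM in sh-ANP32B. Its log2 fold change of 0.28 (limma, adjusted p = 0.00168) lay inside the fold limit. Over these 3 genes the median was 1.15, against 0.08 over all genes.

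Of 19 other inhibitors, 6 were tested and 3 were called higher, all of them among the 4 serpins tested, against 17.9% called higher over all genes. The median of the 6 log2 fold changes was 0.31, against 0.08 over all genes. Neither remaining cystatin was called. CSTA, or stefin A, had 60.1 and 58.7 TPM in NC and 62.5 and 65.1 TPM in sh-ANP32B (log2 fold change 0.10, limma adjusted p = 0.162). CST7, or cystatin F, had 222 and 233 TPM in NC and 234 and 239 TPM in sh-ANP32B (log2 fold change 0.06, limma adjusted p = 0.291). SERPINA1, the inhibitor of neutrophil elastase known as alpha-1 antitrypsin, rose from 4.49 and 3.66 TPM to 27.1 and 27.5 TPM (log2 fold change 2.48, limma adjusted p = 1.48e-04). SERPINB1, which blocks neutrophil elastase and CTSG inside the cell, rose from 121 and 122 TPM to 209 and 202 TPM (log2 fold change 0.75, limma adjusted p = 1.81e-04). SERPINB8 had a log2 fold change of 0.52 (limma, adjusted p = 0.00408), which fell inside the fold limit at 0.43 after median-of-ratios scaling, at 0.44 without NC replicate 2 and at 0.49 without sh-ANP32B replicate 1, and was not called after quantile normalization either. SERPINB6, the fourth serpin, named after its values were seen, had 97 and 98 TPM in NC and 92.1 and 94.6 TPM in sh-ANP32B (log2 fold change -0.06, limma adjusted p = 0.298).

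The next list held genes that accompany or sort the cathepsins, together with other lysosomal peptidases and membrane proteins, and was called higher in part. Of 18 on the list, 16 were tested and 8 were called higher, against 17.9% of all genes. Of the other 8, 6 had an adjusted p below 0.05 inside the fold limit, and the median over the list was 0.59, against 0.08 over all genes. All 4 partners and activators were called, among them both enzymes that CTSA stabilises. GLB1, lysosomal beta-galactosidase, rose from 207 and 199 TPM to 342 and 347 TPM (log2 fold change 0.76, limma adjusted p = 1.67e-04). NEU1, lysosomal sialidase, had 2.16 and 7.97 TPM in NC and 20.3 and 16.7 TPM in sh-ANP32B, so its controls lay far apart. Its log2 fold change was 1.87 (standard error 0.472, limma adjusted p = 0.0238), and it was not called without sh-ANP32B replicate 1 (limma, adjusted p = 0.0718). PSAP, the precursor of the saposins, rose from 331 and 347 TPM to 722 and 725 TPM (log2 fold change 1.09, limma adjusted p = 7.66e-05).

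Among lysosomal peptidases that are not cathepsins, TPP1 rose from 111 and 112 TPM to 348 and 337 TPM (log2 fold change 1.61, limma adjusted p = 4.92e-05). SCPEP1, a serine carboxypeptidase, rose from 146 and 139 TPM to 383 and 370.2 TPM (log2 fold change 1.40, limma adjusted p = 6.52e-05). DPP7, a dipeptidyl peptidase, had 328 and 333 TPM in NC and 312 and 324 TPM in sh-ANP32B (log2 fold change -0.06, limma adjusted p = 0.275). Of 7 sorting and membrane genes tested, IGF2R and LAMP1 were called higher (these and M6PR were named after their values were seen). IGF2R, the large mannose 6-phosphate receptor, had a log2 fold change of 0.90 (limma, adjusted p = 2.34e-04), while M6PR, the small receptor, had one of 0.31 (limma, adjusted p = 0.00875).

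Substrates of the cathepsins and genes of antigen presentation differed widely in their fold changes. Of 12 on the list, 5 were tested and ELANE and HLA-DRA were called higher, against 17.9% of all genes, with a median of 0.49 against 0.08. HLA-DRA, an MHC class II chain and not itself a substrate, had low values of 0.609 and 0.736 TPM in NC and 5.08 and 3.03 TPM in sh-ANP32B (log2 fold change 1.57, limma adjusted p = 0.00561). ELANE, neutrophil elastase, which CTSC activates, rose from 666 and 652 TPM to 1636 and 1656 TPM (log2 fold change 1.32, limma adjusted p = 5.07e-05). PRTN3, another protease that CTSC activates, had 1466 and 1463 TPM in NC and 1695 and 1732 TPM in sh-ANP32B (log2 fold change 0.23, limma adjusted p = 0.00349). The RNA of CTSC itself overlapped between the groups, as given above. CD74, the invariant chain that CTSS trims, had 526 and 518 TPM in NC and 705 and 716 TPM in sh-ANP32B (log2 fold change 0.44, limma adjusted p = 3.94e-04). AZU1, a granule protein without protease activity, had a log2 fold change of 0.49, and it was called at 0.53 after quantile normalization and at 0.69 without sh-ANP32B replicate 2.

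Transcription factors linked to lysosomal or myeloid genes made the last list. Of 12, 11 were tested and 5 were called higher, against 17.9% of all genes, with a median of 0.49 against 0.08. TFE3, of the MiT/TFE family, rose from 16.2 and 14.7 TPM to 29.1 and 31.4 TPM (log2 fold change 0.93, limma adjusted p = 8.03e-04). TFEC, of the same family, had a log2 fold change of 0.66 (limma, adjusted p = 0.00118). TFEB, named after its values were seen, had 23.5 and 21.3 TPM in NC and 32.4 and 31.4 TPM in sh-ANP32B, with a log2 fold change of 0.49 (limma, adjusted p = 0.00493) just inside the limit, and it was called with a pseudocount of 0.1 at 0.51, without NC replicate 1 at 0.56 and without sh-ANP32B replicate 2 at 0.51. SPI1, which encodes PU.1, had 250.3 and 257 TPM in NC and 361 and 361 TPM in sh-ANP32B. Its log2 fold change of 0.51 (limma, adjusted p = 3.35e-04) fell inside the limit at 0.49 without NC replicate 1 and at 0.41 after median-of-ratios scaling. CEBPA had 407 and 413 TPM in NC and 438 and 434 TPM in sh-ANP32B (log2 fold change 0.09, limma adjusted p = 0.0822). CEBPB, named after its values were seen, had 155 and 151 TPM in NC and 212 and 212 TPM in sh-ANP32B. Its log2 fold change of 0.47 (limma, adjusted p = 5.22e-04) lay just inside the limit, and it was called at 0.51 after quantile normalization. Of the 5 myeloid factors tested, SPI1 alone was called in the main fit, and their median log2 fold change was 0.09. MITF (adjusted p = 0.0494 in limma) and ZKSCAN3, a repressor of lysosomal genes, were called too. MITF lost its call in 8 of the 10 refits, with an adjusted p from limma between 0.0525 (pseudocount 0.1) and 0.184 (without NC replicate 1). ZKSCAN3 lost its call after quantile normalization, without NC replicate 2 and without sh-ANP32B replicate 1 (limma, adjusted p = 0.0526, 0.0605 and 0.0674).

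**Figure D5:**
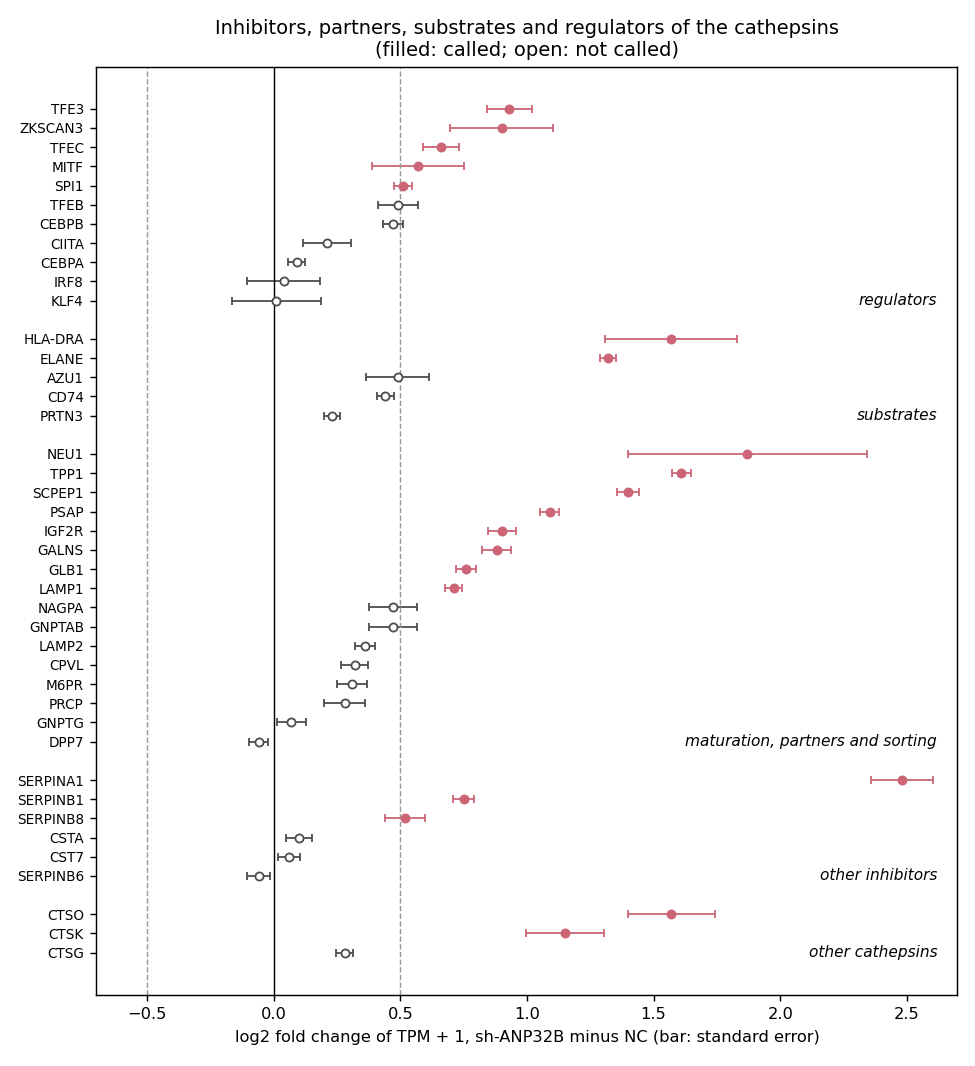
Log2 fold changes with standard errors for the genes tested in the 5 lists. The lists hold other cathepsins, inhibitors, partners with sorting and other lysosomal genes, substrates with antigen presentation genes, and regulators. Dashed lines mark the fold limit of 0.5 in both directions. Filled points were called, and all of them lie on the higher side, while the cystatins CSTA and CST7 stay near 0.

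The genes whose pattern over the 4 libraries lay nearest to that of CST3 were COLQ, RAB37 and HLA-DRB1, by the distance of log2(TPM + 1) less the NC mean, taken over genes that averaged 10 TPM or more. COLQ had 19.8 and 19.1 TPM in NC and 56.7 and 59.7 TPM in sh-ANP32B, at a distance of 0.045. RAB37 lay at 0.056 and HLA-DRB1 at 0.060. With 4 libraries in 2 groups, this mainly picks genes with a fold change near that of CST3.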

How the data were processed

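RNA of MV4-11 cells was sequenced in 2 NC and 2 sh-ANP32B libraries. HISAT2 2.0.5 was used by the authors for alignment to hg38, and the deposited table holds 1 value for each gene in each library. No unit is stated. The deposited values were read as TPM from their sums, which are nearly equal in all libraries. The quantifier, its annotation and the handling of strand are not given in the sources used here. The lowest gene mean in the table is 0.500 TPM. Of 18885 identifiers, 14961 had a symbol.

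The study's DESeq2 test needs counts, so limma 3.58.1 in R 4.3.3 (lmFit, eBayes with trend) was used on log2(TPM + 1), without a block. The filter kept a gene that reached 1 TPM in 2 or more libraries. The fold limit of 0.5 is the study's. An adjusted p was used here, whereas the paper does not say whether its p was adjusted. The script was tested on simulated data. From the fixed list of markers of other cells, 1 gene is not reported here. Members and lists were chosen with earlier results of these data known. The text names all members, ANP32B, up to 6 genes per list (those called with the largest changes and those of highest TPM), others marked as named after their values were seen, and the 3 genes nearest to CST3. Positions and overlaps come from GENCODE 44, promoters from RefSeq. Same-numbered libraries did not deviate together (correlation -0.0232), so the numbers were not taken as pairs. The smallest two-sided p that an exact permutation test of 1 gene allows here is 0.33, and the adjusted p-values depend on limma's sharing of variance across genes.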

Additional observations from a re-analysis of the deposited data

How the results depend on the processing

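The count of 6 genes called among the cathepsins and cystatins was the same under the replicate block, both filters, a pseudocount of 0.1, both scalings, an unadjusted p and each library left out, and it was 5 with a fold limit of 1. That fold limit also gave 1409 calls over all genes and 1 among the other inhibitors. It gave 4 on the list of partner, sorting and other lysosomal genes. Among the regulators it gave 0 by limma, where 5 regulators pass at the limit of 0.5. The median log2 fold change of the 9 cathepsins and cystatins was 0.98 under median-of-ratios scaling, and between 0.85 (without NC replicate 2) and 1.33 (without NC replicate 1) with each library left out. The ratio of summed TPM was 2.38 for proteases and 2.94 for cystatins after quantile normalization, and 2.10 and 2.58 after median-of-ratios scaling. Regulators called numbered 3 under median-of-ratios scaling and between 3 and 5 with a library left out, the lowest without sh-ANP32B replicate 1. Requiring 1 TPM in every library left 1 gene called on the substrate and antigen presentation list, because HLA-DRA was then not tested. The fit with a replicate block called 4524 genes against 4736 without it, and MITF was lost (limma, adjusted p = 0.0759). ENSG00000250644, which overlaps CTSD, was gained (limma, adjusted p = 0.0056 against 0.0542 without it), and the calls of the cathepsins, cystatins and other listed genes, the neighbours, the line markers and ANP32B were otherwise the same. Of the 10 refits, SERPINB8 lost its call in 4, MITF in 8, ZKSCAN3 and PDXK in 3, SPI1 and ATP5F1E in 2 and NEU1 in 1. The depth is unknown, so no limit of detection can be given, and 2 libraries per group limit the precision.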
